A study of Mus musculus with 2 samples.

Results

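Gzma, Gzmb, Gzmk, Prf1, Nkg7, Ctsw, Klrd1 and Cma1, which encode granzymes, perforin and other proteins of the cytotoxic granule together with 1 NK cell receptor chain, were followed across the cell classes of mouse blood. The genes were taken by their symbols, and all 8 were found among the 32285 genes of the count tables. The data were 2 single-cell RNA-seq libraries of blood cells passed through a neutrophil enrichment kit, 1 from WT mice and 1 from APP/PS1 mice, each made from the pooled blood of 3 females aged 7 months. The APP/PS1 line has mutant human transgenes and deposits amyloid in the brain. No count column separates the transgenes, so the genotypes rest on the labels alone. With 1 library per genotype there was no replicate, so no test was made between genotypes.

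NK cells and CD8 T cells kill target cells by releasing granules onto them. Perforin (Prf1) opens the target membrane and lets in granzymes, serine proteases that act inside the target: granzyme B cleaves after aspartate and activates caspases, whereas granzymes A and K cleave after basic residues. Nkg7 is a membrane protein of the granules that is needed for their release, and Ctsw is cathepsin W, a cysteine protease of NK and CD8 T cells. Klrd1 (CD94) pairs with NKG2 chains to form receptors for a non-classical MHC class I molecule, and Cma1 encodes chymase, a serine protease best known from mast cell granules.

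Of these protease genes, 4 lie in neighbouring pairs. On GRCm38 in the GENCODE M21 annotation, Gzma (chr13:113093825-113100981, minus strand) and Gzmk (chr13:113171608-113225908, minus strand) are 70.6 kb apart. Cma1 (chr14:55941451-55944675, minus strand) and Gzmb (chr14:56258838-56262260, minus strand) are 314 kb apart in a cluster that also holds Ctsg, Mcpt1, Mcpt2, Mcpt4, Mcpt8 and granzymes C to G and N. The other genes are Prf1 (chr10:61297833-61304680, plus strand), Nkg7 (chr7:43437073-43438249, plus strand), Ctsw (chr19:5465043-5468507, minus strand) and Klrd1 (chr6:129591782-129598775, plus strand). RefSeq promoter sequences on GRCm38.p6 were matched for 6 of the 8 genes. The 250 bases before the RefSeq start of both neighbour pairs are shown, since each pair holds a gene found in both NK and CD8 T cells (Gzma and Gzmb) and a gene found mostly in 1 of these classes (Gzmk and Cma1), with the hexamer TGTGGT or its reverse complement ACCACA, the letters that RUNX factors prefer, in capitals.
Gzma, chr13:113100982-113101231, minus strand: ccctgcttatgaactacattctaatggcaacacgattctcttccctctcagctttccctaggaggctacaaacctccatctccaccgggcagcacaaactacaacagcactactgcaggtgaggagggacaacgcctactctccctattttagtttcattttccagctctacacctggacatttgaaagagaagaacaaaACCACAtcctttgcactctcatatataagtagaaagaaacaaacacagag
Gzmk, chr13:113180966-113181215, minus strand: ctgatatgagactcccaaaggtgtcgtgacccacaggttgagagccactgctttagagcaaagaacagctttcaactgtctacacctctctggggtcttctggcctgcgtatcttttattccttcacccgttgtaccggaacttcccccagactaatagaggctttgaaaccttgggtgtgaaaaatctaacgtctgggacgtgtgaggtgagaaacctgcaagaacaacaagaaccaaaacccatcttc
Gzmb, chr14:56262335-56262584, minus strand: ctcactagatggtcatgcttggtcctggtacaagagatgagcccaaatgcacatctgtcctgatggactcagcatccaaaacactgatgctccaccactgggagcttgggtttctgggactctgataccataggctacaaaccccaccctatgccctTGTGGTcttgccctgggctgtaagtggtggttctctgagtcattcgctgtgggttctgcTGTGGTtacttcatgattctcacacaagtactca
Cma1, chr14:55944676-55944925, minus strand: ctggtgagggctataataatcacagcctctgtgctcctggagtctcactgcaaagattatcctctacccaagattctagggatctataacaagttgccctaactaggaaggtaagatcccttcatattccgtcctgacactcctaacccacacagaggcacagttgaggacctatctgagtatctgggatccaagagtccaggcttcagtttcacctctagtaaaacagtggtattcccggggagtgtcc
Both strands were searched for 4 hexamers chosen after levels had been seen. The RUNX hexamer was in the windows of Gzma (first base at -50 from the start), Gzmb (-93 and -34), Prf1 (-130) and Nkg7 (-83), that is, in 4 of 6, and it was absent from those of Gzmk and Cma1. RefSeq and GENCODE starts can differ. The Gzmk window lies inside the GENCODE span of Gzmk, and the Nkg7 window overlaps that of Nkg7, so presence and absence hold for the RefSeq starts only. Of all 32851 windows of this length, 14.05% held the RUNX hexamer. GGTGTG, the core of T-box sites, was in 2 of the 6 (Gzmk and Nkg7) against 16.3% of all windows, AGGAAG, an ETS core, in 3 (Prf1, Nkg7 and Cma1) against 29.5%, and AGATAA, the core for GATA factors, in 0 against 9.99%. No match overlapped a match of another hexamer in these 6 windows, and a match in these letters is a description, not a bound site.

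The WT library held 17123 barcodes called cells with 92458623 unique molecular identifiers (UMIs, each counted as 1 captured RNA molecule), and the APP/PS1 library 17645 with 84870864. After limits on genes, UMIs and mitochondrial UMIs, 14564 and 15208 cells were kept, and 83 barcode sequences occurred in both libraries. Classes were set by UMIs of marker genes other than the 8, with minimums chosen after the counts had been looked at. NK cells had at least 2 UMIs of Ncr1, Klrb1c, Klre1 and Eomes, 0 of Cd3e, Cd3g, Cd8a, Cd8b1 and Cd4, and at most 20 neutrophil and 4 monocyte marker UMIs. CD8 T cells had at least 2 UMIs of Cd3e and Cd3g and at least 1 of Cd8a and Cd8b1. Gamma-delta T cells had at least 2 of Cd3e and Cd3g and at least 2 of Trdc, the gamma chain genes and Cd163l1. NK cells numbered 350 in WT and 628 in APP/PS1 (2.40% and 4.13% of kept cells), CD8 T cells 171 and 254, gamma-delta T cells 71 and 62, neutrophils 7417 and 8865, monocytes 3446 and 2374, and basophils 71 and 42. Classes other than neutrophils are the cells that remained after neutrophil enrichment, in 1 pool per genotype. Their numbers, and the mix of subsets within them, need not be those of the blood. Levels are UMIs of a gene scaled to 1000000 UMIs of the class (CPM). They count 3' ends, are not divided by gene length and are compared between cells and not between genes. Intervals after values are exact Poisson intervals for CPM, exact conditional intervals for ratios and exact Clopper-Pearson intervals for shares, all at the 95% level. They hold the error of counting and leave out how mice differ. Intervals for CPM and ratios also leave out how the cells of a class differ.

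Summed over all 8 genes, 2.72% of the UMIs of NK cells came from them in WT and 2.65% in APP/PS1, against 0.00237% and 0.00325% in neutrophils. Of the 8, 7 were over 10-fold higher in NK cells than in neutrophils in both libraries, as were 7.77% of the 8868 genes compared, while 7.15% were over 10-fold lower. Gzmk had too few UMIs to be compared. The same 7-of-8 count held for CD8 T cells with memory markers over neutrophils (Cma1 being the one not compared), against 5.13% of 8650 genes higher and 8.84% lower. Neutrophil cells with a UMI of these genes were few: 3.84% for Gzma in WT and 5.35% in APP/PS1, and at most 2.13% for any other, at median depths of 2590 and 2764 UMIs per cell. NK cells were read at 3388 and 3183.5 UMIs per cell. The plot of levels by class shows the gap for each gene.

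**Figure D1:**
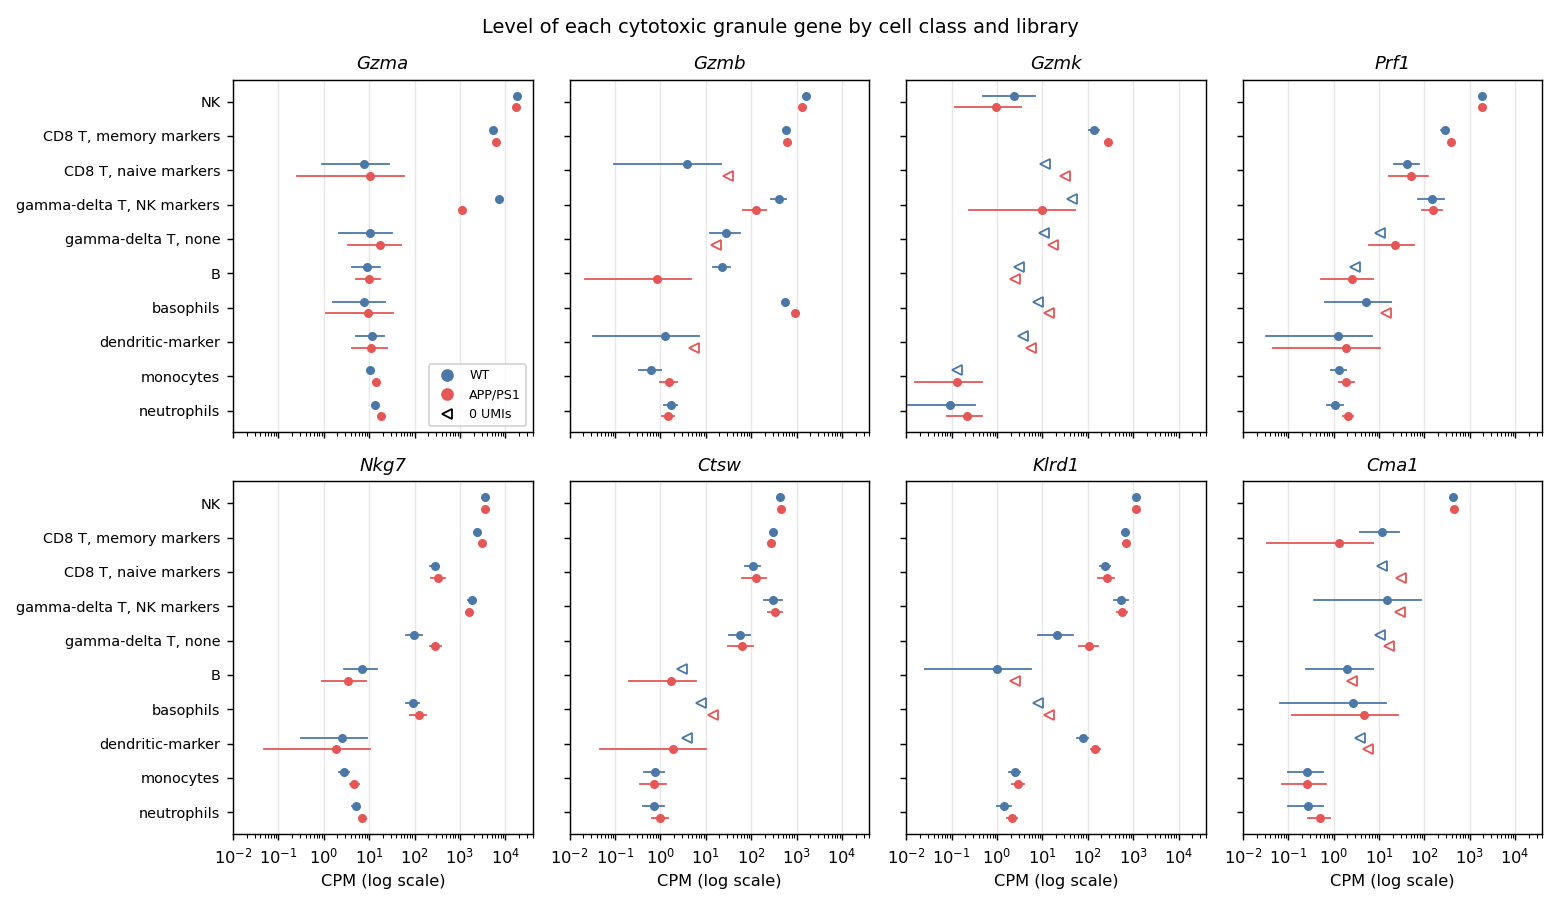
Level of each gene (CPM, log axis) in 10 cell classes, WT in blue and APP/PS1 in red, 1 point per library with its exact 95% Poisson interval; open triangles mark classes with 0 UMIs, drawn at the level that 3 UMIs would give. NK cells are highest for Gzma, Prf1 and Cma1, Gzmk is highest in CD8 T cells with memory markers, basophils carry Gzmb and dendritic-marker cells Klrd1.

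Gzma, the tryptase-like granzyme, stood at 18059 CPM in WT NK cells (17825 to 18296) and 17626 CPM in APP/PS1 NK cells (17446 to 17807). It was found in 99.4% and 99.0% of NK cells, with a median of 62 UMIs per cell in WT (quartiles 45 and 80) and 56 in APP/PS1 (40 and 74). The log2 ratio of APP/PS1 over WT was -0.035 (-0.059 to -0.011), which is small although counting error alone does not reach 0. Against neutrophils, Gzma was 1353-fold higher in WT (1206 to 1524) and 967-fold higher in APP/PS1 (887 to 1058). NK cells held 62.7% and 65.4% of all Gzma UMIs of the libraries, and with the NK-marker cells that lacked Cd3e and Cd3g but were outside another limit of the class, such as that on neutrophil markers, 79.2% and 80.8%.

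Gzmb, the aspartate-cleaving granzyme, was the gene of the 8 that differed most between the NK cells of the genotypes among those with at least 50 UMIs. It stood at 1597 CPM in WT (1528 to 1668) and 1303 CPM in APP/PS1 (1254 to 1353), a log2 ratio of -0.29 (-0.38 to -0.21). At full depth 89.7% and 87.6% of NK cells had a UMI, and with every cell thinned to 1000 UMIs, which leaves out cells below that depth (0 in WT and 1 in APP/PS1), 71.4% (66.4 to 76.1) and 62.8% (58.9 to 66.6). The share among neutrophils was 0.499% and 0.462%. The ratio ranged from -0.36 to -0.29 over all alternative settings. In NK cells with late maturation markers the ratio was -0.35 (-0.44 to -0.26). Only 36 APP/PS1 and 15 WT cells had early markers, and there Gzmb was higher in APP/PS1. It stood at 1173 CPM (144 UMIs) against 441 CPM (26 UMIs) in WT (log2 ratio 1.41, 0.80 to 2.07). A UMI was found in 26 of the 36 and 7 of the 15 cells. The highest cell of each library held 30 and 11 of these UMIs, and without it the levels were 956 and 284 CPM. This interval leaves out how cells differ, and whether the direction depends on maturation was not tested. By the count rule used for all genes, past 1.5-fold with at least 50 UMIs in a library, 2.61% of 5063 genes were higher in the NK cells of APP/PS1 and 1.24% lower, and 0 of the 7 genes of the list that could be compared were in either group.

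Perforin, Nkg7, cathepsin W and CD94 were close between the genotypes in NK cells. Prf1 stood at 1860 CPM in WT against 1908 in APP/PS1, with a log2 ratio of 0.037 (-0.037 to 0.11). Nkg7 stood at 3648 and 3568 CPM (-0.032, -0.085 to 0.022) and was found in 100% and 99.8% of NK cells. Ctsw stood at 443 and 450 CPM (0.024, -0.13 to 0.18), and Klrd1 at 1157 and 1141 CPM (-0.020, -0.11 to 0.075). After thinning, Prf1 was found in 77.7% of WT and 81.3% of APP/PS1 NK cells, Klrd1 in 66.9% and 65.9% and Ctsw in 37.1% and 36.8%. Every one of the 4 intervals of the ratio holds 0. By counting error alone they leave room for differences of up to 0.18 on the log2 scale, and differences between cells and mice are not in them. Over the alternative settings the widest range of the 4 was that of Klrd1, from -0.19 to 0.0031. The median log2 ratio of the 7 genes was -0.020, beside 0.018 for all genes compared.

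Cma1, the chymase gene, lay mostly in NK-marker cells in these libraries. It stood at 436 CPM in WT NK cells (400 to 474) and 454 CPM in APP/PS1 NK cells (425 to 483), with a log2 ratio of 0.059 (-0.095 to 0.21). A UMI was found in 64.0% of WT and 64.8% of APP/PS1 NK cells at full depth and in 31.4% and 35.3% after thinning, against 0.0809% and 0.158% of neutrophils. CD8 T cells with memory markers held 5 Cma1 UMIs in WT and 1 in APP/PS1, so the level in NK cells was 36.7-fold (15.7 to 114) and 343-fold (61.4 to 13551) higher. NK cells held 547 of the 751 Cma1 UMIs of the WT library and 947 of the 1241 of the APP/PS1 library, and all NK-marker cells without Cd3e and Cd3g held 89.8% and 93.7%. Mast cell markers were near 0 in the same NK cells: Mcpt4 and Tpsb2 had 0 UMIs in both libraries, Cpa3 2 and 1, and Kit 7 and 15.

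The neighbours of Cma1 and Gzmb on chromosome 14 had few or no UMIs in NK cells. Gzmd, Gzme, Gzmf, Gzmg, Gzmn, Mcpt1, Mcpt2, Mcpt4, Mcpt8 and Ctsg had 0 UMIs in the NK cells of both libraries, and Gzmc had 2 and 3. NK cells with and without a Cma1 UMI were then compared at the thinned depth. Gzmb was found in 73.6% of thinned WT cells with Cma1 and 70.4% of those without it, and in 64.7% and 61.8% in APP/PS1. Prf1 was found in 76.4% and 78.3% in WT and in 82.8% and 80.5% in APP/PS1. Thinning left a Cma1 UMI in only 110 of the 224 WT and 221 of the 407 APP/PS1 cells that had one. At full depth Prf1 was found in 98.7% and 98.4% in WT. In APP/PS1 it was in 98.3% (96.5 to 99.3) and 92.8% (88.5 to 95.8). Also at full depth, mean Prf1 UMIs per cell were 7.13 and 5.85 in WT and 7.06 and 5.01 in APP/PS1, and mean Gzmb UMIs 5.68 and 5.81, and 4.38 and 4.24. Cells with Cma1 were read deeper, at medians of 3427.5 against 3231 UMIs in WT and 3223 against 3129 in APP/PS1. After thinning, mean Prf1 UMIs were 1.68 and 1.86 in WT, the opposite direction, and 2.06 and 1.89 in APP/PS1. Mean Gzmb UMIs were then 1.68 and 1.60, and 1.28 and 1.33.

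Cma1 and Gzma were higher in NK cells with late markers than in those with early markers. Cells with more UMIs of Itgam, Klrg1, Cx3cr1, Zeb2 and S1pr5 than of Cd27, Cd7, Xcl1 and Il7r numbered 332 in WT and 573 in APP/PS1, and cells with the opposite balance only 15 and 36. Cma1 stood at 459 CPM in late and 50.9 CPM in early cells of WT (544 and 3 UMIs, 9.01-fold, 3.07 to 43.8), and at 475 and 155 CPM in APP/PS1 (911 and 19 UMIs, 3.07-fold, 1.96 to 5.13). Gzma was 1.62-fold higher in late cells in WT (1.5 to 1.75) and 1.52-fold higher in APP/PS1 (1.44 to 1.60). These 2 of 7 genes passed 1.5-fold in both libraries, as did 6.38% of 4795 genes, with 2.98% lower. Gzmb did so only in WT, where early cells held 26 UMIs, with 3.77-fold (2.56 to 5.78) against 1.11-fold (0.939 to 1.32) in APP/PS1, and Prf1, Nkg7, Ctsw and Klrd1 differed by at most 1.30-fold.

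Gzmk, the granzyme next to Gzma, had the opposite distribution, being carried by CD8 T cells and nearly missing from NK cells. The NK cells held 3 Gzmk UMIs in WT and 2 in APP/PS1. CD8 T cells with memory markers, those with more UMIs of Ccl5, Il2rb, Cxcr3 and Ly6c2 than of Ccr7, Lef1 and Tcf7, held 58 and 210. On the CPM scale this was 57.6-fold (18.7 to 287) and 290-fold (79.3 to 2412) lower in NK cells. CD8 T cells held 51.3% and 61.1% of all Gzmk UMIs of the libraries and other cells with Cd3e or Cd3g UMIs 21.2% and 23.6%. Between these classes, 5 of the 8 genes (Gzma, Gzmb, Prf1, Klrd1 and Cma1) were past 1.5-fold higher in NK cells in both libraries and 1 (Gzmk) lower, beside 9.50% and 3.68% of 5103 genes. Gzma was 3.41-fold higher in NK cells in WT and 2.82-fold in APP/PS1, Prf1 6.48- and 4.85-fold, and Nkg7 only 1.51- and 1.17-fold.

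**Figure D2:**
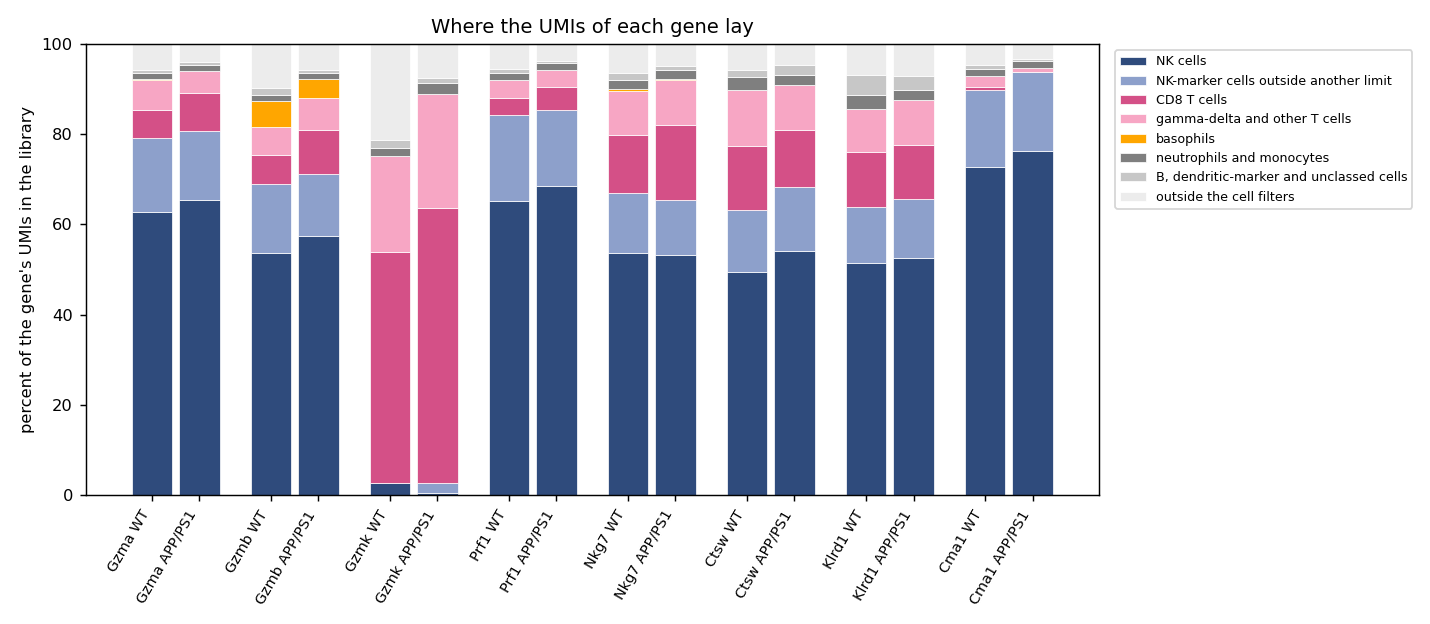
Share of each gene's UMIs (percent of all its UMIs in the library, bars from 0 to 100) by cell class, 1 bar per gene and library. NK-marker cells hold most UMIs of every gene but Gzmk, which lies in CD8 and other T cells, and a visible part of Gzmb lies in basophils.

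Within CD8 T cells the genes were higher where memory markers were present. Most memory marker UMIs of CD8 T cells were of Ccl5 (12764 in WT and 28381 in APP/PS1), beside 422 and 913 of Ly6c2. Ccl5 is itself on the list of other cytotoxic pathway genes, so this split is not independent of the genes followed. In the 53 WT and 19 APP/PS1 cells with naive markers, Gzma had 2 and 1 UMIs, Gzmb 1 and 0, and Gzmk and Cma1 0 and 0. Gzma stood at 5304 CPM in the 117 WT cells with memory markers and 6259 CPM in the 235 of APP/PS1. With the naive-marker cells put at 3 UMIs, Gzmk was 11.9-fold higher in memory-marker cells in WT and 8.91-fold in APP/PS1. The lower ends of the exact intervals, taken with 0 UMIs, were 9.38-fold and 7.18-fold. Nkg7 (277 and 333 CPM), Klrd1 (239 and 260 CPM) and Ctsw (112 and 125 CPM) were also found in naive-marker cells, and Klrd1 was 2.78- and 2.66-fold higher in memory-marker cells. All 7 genes compared were past 1.5-fold higher in both libraries, but so were 31.5% of 2232 genes, with 6.32% lower.

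Over all CD8 T cells, most of the genes were higher in APP/PS1. Gzma stood at 3269 CPM in WT against 5553 in APP/PS1 (log2 ratio 0.76, 0.69 to 0.84), Nkg7 at 1593 and 2743 CPM (0.78, 0.68 to 0.89), Prf1 at 193 and 355 CPM (0.88, 0.58 to 1.19), Gzmb at 359 and 553 CPM (0.62, 0.40 to 0.85) and Gzmk at 84.7 and 247 CPM (1.54, 1.12 to 1.99). These 5 of the 7 genes compared were past 1.5-fold, beside 10.9% of 2479 genes higher and 3.47% lower, and with classes taken from clusters 3 were. Klrd1 (0.36, 0.16 to 0.56) and Ctsw (0.13, -0.18 to 0.43) were not past it. The APP/PS1 library also held fewer CD8 T cells with naive markers, 19 of 254 against 53 of 171 in WT. These are cells left after neutrophil enrichment, and whether the blood of the mice differed in this way was not tested.

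Within the cells with memory markers the differences were smaller, and Gzmk was the only gene of the list past 1.5-fold. Gzmk stood at 138 CPM in WT (104 to 178) and 278 CPM in APP/PS1 (242 to 318), a 2.02-fold difference (1.51 to 2.75). A Gzmk UMI was found in 35 of 117 WT cells (29.9%, 21.8 to 39.1) and 109 of 235 APP/PS1 cells (46.4%, 39.9 to 53.0), and in 14.5% and 25.5% after thinning, against 0.0270% and 0.0677% of neutrophils. Prf1 (287 and 393 CPM, log2 ratio 0.45, 0.14 to 0.77), Nkg7 (2414 and 3050 CPM, 0.34, 0.23 to 0.45) and Gzma (0.24, 0.17 to 0.31) were higher in APP/PS1 by less. The intervals of Gzmb (581 and 623 CPM, 0.10, -0.12 to 0.33), Klrd1 (664 and 692 CPM, 0.060, -0.15 to 0.28) and Ctsw (311 and 271 CPM, -0.19, -0.52 to 0.13) held 0. The shares of cells with a UMI after thinning were 60.7% in WT and 73.6% in APP/PS1 for Gzma, 32.5% and 42.1% for Gzmb, 23.1% and 35.3% for Prf1, 40.2% and 48.1% for Klrd1, and 28.2% and 24.7% for Ctsw. Gzmk was thus 1 of 7 genes past 1.5-fold, beside 6.71% of 2219 genes higher and 2.61% lower, and the median log2 ratio was 0.24 for the 7 and 0.051 for all genes. Haemoglobin transcripts took 31463 CPM in these WT cells and 15294 CPM in those of APP/PS1. With library sizes that leave out haemoglobin, other abundant genes and the genes of the list, the log2 ratio of Gzmk was 0.96 (0.53 to 1.40), beside 1.02 with all UMIs.

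**Figure D3:**
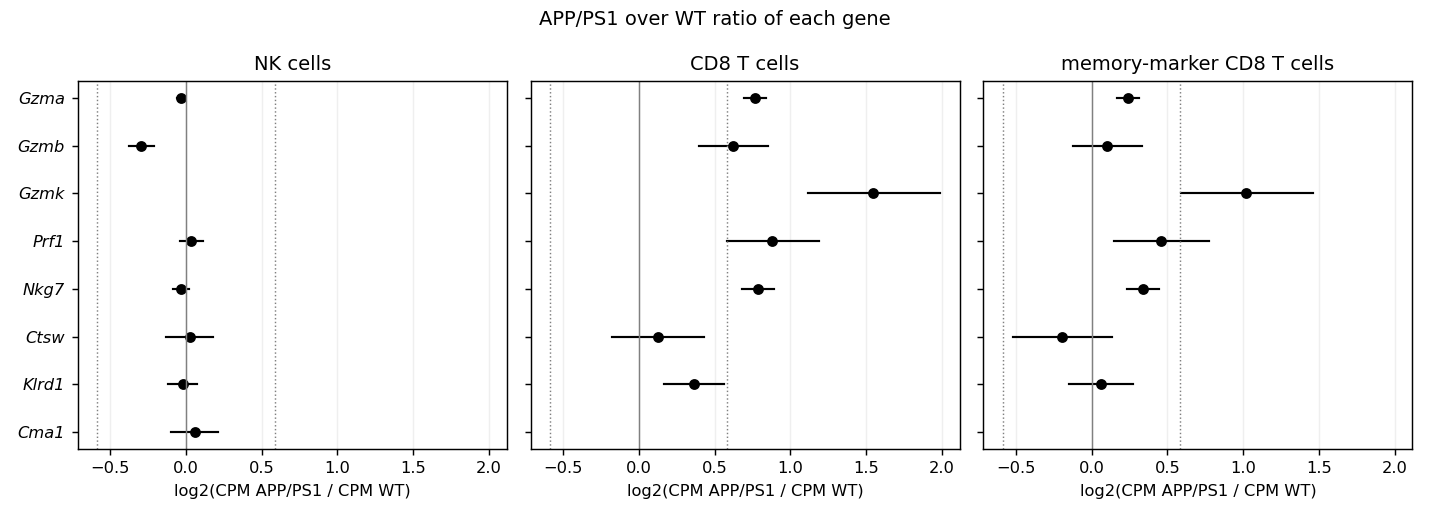
Log2 ratio of CPM, APP/PS1 over WT, of each gene in NK cells, all CD8 T cells and CD8 T cells with memory markers, with exact conditional 95% intervals; dotted lines mark 1.5-fold and genes with fewer than 10 UMIs over both libraries are left out. All 7 genes lie inside the dotted lines in NK cells, 5 lie above them in all CD8 T cells, and Gzmk alone lies above them in cells with memory markers.

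Cells with both Gzma and Gzmk were a larger share of memory-marker CD8 T cells in APP/PS1, with no replicate to test the difference. Each gene alone was also found in a larger share there. Gzma was found in 78 of 117 WT and 183 of 235 APP/PS1 cells, and Gzmk in 35 and 109. Whether the genes met in more cells than these shares alone would give was not tested. Cells with UMIs of both made up 16 of 117 in WT (13.7%, 8.02 to 21.3) and 90 of 235 in APP/PS1 (38.3%, 32.1 to 44.8). In WT, Gzma was found in 45.7% of the 35 cells with Gzmk (28.8 to 63.4) and in 75.6% of the 82 cells without it (64.9 to 84.4). In APP/PS1 it was found in 82.6% of the 109 cells with Gzmk (74.1 to 89.2) and 73.8% of the 126 without it (65.2 to 81.2). After thinning the shares were 29.4% of 17 and 66.0% of 100 in WT, and 76.7% of 60 and 72.6% of 175 in APP/PS1. The cells with Gzmk were few in WT and all came from 1 pool of mice.

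**Figure D4:**
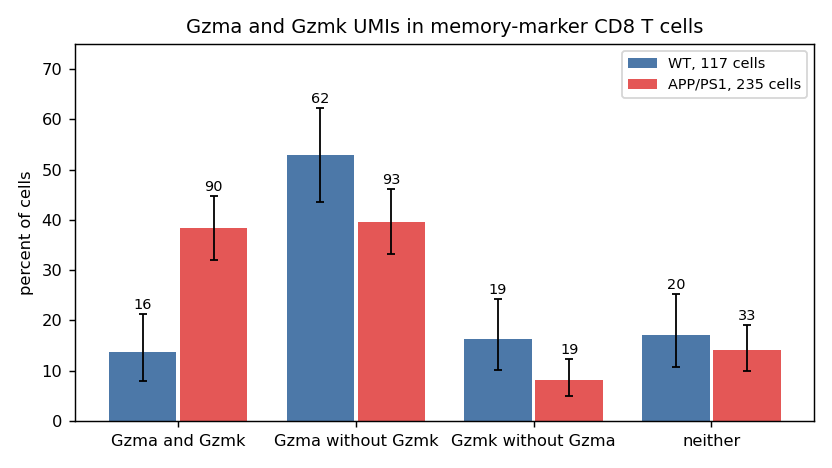
Percent of CD8 T cells with memory markers that held UMIs of Gzma and Gzmk, of 1 of them or of neither, by library, with exact Clopper-Pearson 95% intervals and the number of cells above each bar. Cells with both were 16 of 117 in WT and 90 of 235 in APP/PS1.

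In memory-marker CD8 T cells Gzmb was found more often in cells with Gzma in both libraries, with intervals that overlapped in WT. Gzmb was found in 62.8% of WT cells with Gzma (51.1 to 73.5) and 38.5% of those without (23.4 to 55.4). In APP/PS1 these shares were 76.5% (69.7 to 82.4) and 32.7% (20.3 to 47.1). After thinning they were 40.8% (29.3 to 53.2) and 19.6% (9.36 to 33.9) in WT, and 50.3% (42.6 to 58.0) and 19.4% (10.4 to 31.4) in APP/PS1. In NK cells 314 of 350 WT and 550 of 628 APP/PS1 cells held both. Nearly all NK cells had Gzma, so this count cannot show whether the 2 genes go together. Cells with none of Gzma, Gzmb and Gzmk were 14 of the 117 and 23 of the 235 memory-marker CD8 T cells, but 2 of the 350 and 6 of the 628 NK cells.

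Among gamma-delta T cells, Gzma came from a few cells. It had 500 UMIs in WT (1432 CPM, 1310 to 1564) and 120 in APP/PS1 (428 CPM, 355 to 512), in 8 of 71 and 11 of 62 cells. In WT 5 cells held 243, 83, 71, 63 and 36 UMIs, and in APP/PS1 4 cells held 41, 30, 23 and 19. The WT cell with 243 Gzma UMIs had 12355 UMIs in all. The upper limit, set within each library, was 14224.9 in WT and 11656.6 in APP/PS1, where a cell of this depth would have been left out. Without the cell with most Gzma UMIs in each library the levels were 763 and 285 CPM. All but 3 Gzma UMIs in each library were in the 12 WT and 25 APP/PS1 cells with a UMI of an NK marker, which stood at 7341 and 1128 CPM. Nkg7 was higher in APP/PS1 (433 and 777 CPM, log2 ratio 0.85, 0.54 to 1.16), as was Klrd1 (123 and 278 CPM, 1.18, 0.62 to 1.75), whereas Gzma was lower (-1.74, -2.04 to -1.45). Within the cells with NK markers Nkg7 stood at 1817 and 1610 CPM (-0.17, -0.52 to 0.17) and Klrd1 at 547 and 569 CPM (0.057, -0.56 to 0.69), and without them Nkg7 stood at 99.5 and 289 CPM (1.54, 0.84 to 2.26) and Klrd1 had 6 and 19 UMIs. Cells with NK markers were 12 of 71 in WT and 25 of 62 in APP/PS1. A single UMI sets this split, and 3 of the 4 markers were higher in the NK cells of APP/PS1. There Klrb1c stood at 674 and 981 CPM, Klre1 at 592 and 842 and Ncr1 at 738 and 856, whereas Eomes was lower (264 and 222). The part of marker level in the split was not tested. Of 1006 genes compared 3.98% were past 1.5-fold higher and 9.54% lower, and only 3 of the 8 genes had enough UMIs to be compared. The direction for Gzma turned when the class was taken from clusters (1.33). Prf1 had 10 and 20 UMIs, Gzmb 36 and 13, and Cma1 1 and 0. A further 15 WT and 26 APP/PS1 T cells had NK markers but neither CD8 nor gamma-delta markers, and Gzma stood there at 9711 and 4968 CPM and Cma1 at 11 and 0 UMIs.

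Basophils carried Gzmb, and in fewer cells Nkg7, with few or no UMIs of the other genes. The gate asked for at least 5 UMIs of Mcpt8, Cd200r3, Ms4a2, Fcer1a and Gata2 and 0 of the NK and T cell markers. Gzmb had 217 UMIs in the 71 WT basophils (566 CPM, 493 to 647) and 200 in the 42 of APP/PS1 (945 CPM, 818 to 1085). A UMI was found in 37 of 71 cells (52.1%, 39.9 to 64.1) and 18 of 42 (42.9%, 27.7 to 59.0), at median depths of 4644 and 4593.5 UMIs, and in 31.0% and 26.2% after thinning, against under 1% of neutrophils. In APP/PS1 112 of the 200 UMIs were in 1 cell, which the doublet caller marked, and in WT the highest cell held 58. That WT cell had 11772 UMIs in all, above the upper limit for the APP/PS1 library (11656.6). Without the highest cell of each library the levels were 428 and 436 CPM, so the difference between the libraries rests on single cells. Per 100 Gzma UMIs, basophils held 7233 and 10000 of Gzmb, and NK cells 8.84 and 7.39. Gzma had 3 and 2 UMIs in basophils, Prf1 2 and 0, Cma1 1 and 1, and Gzmk, Ctsw and Klrd1 0 in both libraries. Nkg7 had 35 and 26 UMIs (91.3 and 123 CPM) in 12 of 71 and 6 of 42 cells, 16.9% and 14.3%, and in 8.45% and 7.14% after thinning, against 0.458% and 0.778% of thinned neutrophils. Of these UMIs 18 and 15 were in the cell with most Gzmb. Gzmc, the granzyme beside Gzmb, had 9 and 2 UMIs. The neutrophil markers S100a9, Hdc, Csf3r, Retnlg and Cxcr2, of which Hdc is also a basophil gene, took 15339 and 11240 CPM in these cells. In NK cells they took 1252 and 1301 CPM, but the NK gate allowed at most 20 of these UMIs per cell. The NK value was thus limited in advance and is no measure of the usual level. Neutrophil markers aside, 9 of 71 and 1 of 42 basophils were called doublets. Their part in the Gzmb level was not tested. In B cells of WT, 23 Gzmb UMIs were all in 1 cell.

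Klrd1 was found in a further class, cells with at least 3 UMIs of the dendritic cell markers Flt3, Xcr1, Siglech and Cd209a. This class was set apart after Klrd1 had been seen among monocytes, and it held 90 cells in WT and 63 in APP/PS1. In WT most of the marker UMIs were of Cd209a (641), with 90 of Flt3, 4 of Siglech and 0 of Xcr1. Monocyte markers were also present in WT, with Ms4a6c at 1387 CPM and Csf1r at 281 CPM. In WT monocytes these stood at 1264 and 787 CPM. Klrd1 had 61 UMIs in WT (77.5 CPM, 59.3 to 99.5) and 79 in APP/PS1 (147 CPM, 117 to 184), in 25 cells of each library (27.8% and 39.7%), against 2.46 and 2.91 CPM in monocytes. After thinning, 5.56% and 6.35% of the cells had a UMI, against 0.145% and 0.169% of monocytes. The median depths were 8701.5 and 8702 UMIs in dendritic-marker cells and 6521.5 and 6440.5 in monocytes. Per 100 Gzma UMIs the class held 678 and 1317 of Klrd1, and NK cells 6.41 and 6.47. Gzma itself stood at 11.4 and 11.2 CPM there, near its level in monocytes of 10.5 and 14.1 CPM, and Nkg7 had 2 and 1 UMIs and Prf1 1 and 1.

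In neutrophils, the cells the libraries were enriched for, Gzma stood at 13.3 CPM in WT against 18.2 in APP/PS1 (log2 ratio 0.45, 0.24 to 0.66). The ratio was much the same in monocytes, at 10.5 and 14.1 CPM (0.42, 0.14 to 0.69). In B cells, with 9 and 12 UMIs, its interval held 0 (0.15, -1.22 to 1.58). Of the other genes in neutrophils, Nkg7 stood at 5.04 and 6.82 CPM, Prf1 at 1.09 and 2.10, Gzmb at 1.68 and 1.49, Klrd1 at 1.45 and 2.13 and Cma1 at 0.272 and 0.497. Per 100 Gzma UMIs, neutrophils held 8.16 and 11.5 of Prf1 and 2.04 and 2.73 of Cma1, beside 10.3 and 10.8 of Prf1 and 2.41 and 2.57 of Cma1 in NK cells. Nkg7, Klrd1 and Ctsw took more per Gzma UMI in neutrophils than in NK cells. Nkg7 took 37.8 and 37.4 against 20.2 and 20.2, Klrd1 10.9 and 11.7 against 6.41 and 6.47, and Ctsw 5.44 and 5.46 against 2.45 and 2.55. Gzmb, from only 37 and 42 UMIs, took 12.6 and 8.19 against 8.84 and 7.39, which is close in APP/PS1. CD8 T cells held 12.8% and 16.7% of all Nkg7 UMIs and 6.19% and 8.40% of all Gzma UMIs. In the sums of neutrophils, free RNA from NK cells, free RNA from T cells and RNA of the neutrophils cannot be told apart. The APP/PS1 library held more NK cells, and the part of this in the higher Gzma level of neutrophils was not tested.

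Of the 42 other genes of the cytotoxic pathway and of the chromosome 14 cluster, 26 could be compared between genotypes in NK cells, and 0 were past 1.5-fold higher and 1 lower in APP/PS1, beside 2.61% of all 5063 genes higher and 1.24% lower, so the count is near that of all genes. The gene was Prdm1, a transcriptional repressor of lymphocyte differentiation, at 89.2 CPM in WT against 55.6 in APP/PS1 (log2 ratio -0.68, -1.07 to -0.30). Among the serpins that block granzymes, Serpinb9b stood at 239 and 177 CPM (-0.43, -0.66 to -0.21) and Serpinb6b at 386 and 327 CPM (-0.24, -0.41 to -0.068), and Serpinb9 at 631 and 593 CPM with an interval that held 0. Ccl5, a chemokine gene, stood at 32029 and 28221 CPM. Klrc1 and Klrc2, which encode partners of Klrd1, stood at 236 and 317 CPM and at 339 and 481 CPM. Their sequences are close to each other, and how reads were split between them is uncertain. Srgn, the proteoglycan of the granule core, was lower in NK cells (933 and 866 CPM) than in neutrophils (7400 and 7249 CPM).

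In CD8 T cells with memory markers, 18 of the 42 could be compared, and 4 were past 1.5-fold higher and 0 lower in APP/PS1, beside 6.71% of all 2219 genes higher and 2.61% lower. The median log2 ratio of the 18 was 0.011, below the 0.051 of all genes. The 4 were Klrc1 (140 and 532 CPM, log2 ratio 1.93, 1.53 to 2.35), Klrc2 (64.0 and 229 CPM, 1.84, 1.25 to 2.48), Ifng, the gene of interferon gamma (75.9 and 130 CPM, 0.77, 0.18 to 1.40), and Eomes, a T-box factor of cytotoxic cells (133 and 222 CPM, 0.74, 0.30 to 1.21). Klrd1, the partner chain of both receptors, differed by 0.060 in the same cells.

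Over the sums of 9 classes in 2 libraries, 18 points that share the depth of their library, the genes most like each of the 8 were taken by Pearson's r of log2(CPM + 1) among 10526 genes. Kcnj8 (0.993), Klre1 (0.991) and Ifng (0.990) were closest to Gzma, and Tbx21 (0.983) was closest to Prf1. Ccl5 (0.992) was closest to Ctsw, Dapk2 (0.978) to Nkg7 and Klrk1 (0.939) to Klrd1. Gzmb was closest to Pglyrp2 and Sytl3 (both 0.952), Gzmk to Cd8a (0.819) and Cma1 to Lrp10 (0.873). Klre1 was used to choose NK cells, Ccl5 to choose memory-marker cells and Cd8a to choose CD8 T cells, and these values are a description only.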

How the data were processed

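Blood cells enriched for neutrophils were measured in 2 libraries, 1 per genotype, with 10x Genomics 3' chemistry. The authors deposited raw UMI counts per gene and cell for all barcodes called cells, made with Cell Ranger 5.0.0 on mm10 per the submitters' processing notes, with no normalization or further filter. The 8 genes, the gene lists and the markers were chosen with earlier results of these data known, and the class minimums, the dendritic-marker class and the hexamers were set after the files had been looked at.

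For genes and for UMIs per cell, values below percentile 5 or above percentile 95 within the library were left out, as were cells with over 10% mitochondrial UMIs. UMIs were summed per class and library. Every symbol of the list was named in every class, the other pathway genes where they bore on a member, and for likeness the genes with the highest r among those with at least 200 UMIs. NK cells with equal early and late marker UMIs, and CD8 T cells with equal naive and memory marker UMIs, stayed out of those subclasses. Neutrophils had at least 50 marker UMIs, monocytes at least 8 and B cells at least 3, with 0 of the NK and T cell markers. Scrublet (scanpy 1.11.5) marked doublets with the threshold of the WT library for both (9.37% and 7.76% of cells) and kept, since the own threshold of the APP/PS1 library called 0%. Cd3d was left out of the gates, and 1 further planned naive marker was not used here and is not reported. Python 3.11.15, scipy 1.17.1 and pandas 2.3.3 were used, and edgeR 4.0.16 for TMM factors. The CPM and ratio intervals were tried on counts simulated from the Poisson model that they assume. This checks the calculation only and does not cover differences between cells. With 1 library per genotype no test was possible. Alternatives were other cell filters, gates, doublet removal, clusters, library sizes, the mean over cells, thinning and other UMI minimums. The single cells with most UMIs were left out as an alternative chosen after seeing the data.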

Additional observations from a re-analysis of the deposited data

Results flagged for a closer look

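For 2 genes, Gzma and Gzmb, the APP/PS1 over WT ratio had opposite signs in cell classes with at least 50 UMIs and with intervals that did not hold 0. For Gzma the log2 ratio was -0.035 in NK cells, 0.76 in CD8 T cells and -1.74 in gamma-delta T cells. The last value comes from a few cells, 1 of which holds 243 of the 500 WT UMIs. It was 1.33 with classes from clusters, where the gamma-delta cluster had few NK marker UMIs. For Gzmb it was -0.29 in NK cells and 0.62 in CD8 T cells, and -1.15 in gamma-delta T cells from 36 and 13 UMIs. The CD8 T cell values are over naive-marker and memory-marker cells together. Within memory-marker cells the ratio was 0.24 for Gzma (0.17 to 0.31). For Gzmb it was 0.10 there, with an interval that held 0 (-0.12 to 0.33). Nkg7 and Klrd1 were also below 0 in NK cells (-0.032 and -0.020, with intervals that held 0) and above 0 in CD8 T cells (0.78 and 0.36) and gamma-delta T cells (0.85 and 1.18). The difference between classes was not tested, since each genotype has 1 library.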

How the results depend on the processing

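Ratios between genotypes were counted for single genes, and for the sum in memory-marker CD8 T cells where a setting had them. In 28 of 28 cases they kept their direction without percentile limits, with percentiles over both libraries and without called doublets. The same count held with 1 UMI more in each gate and with TMM library sizes. Direction was kept in 7 of 7 with NK cells gated on Ncr1 alone and in 26 of 28 without the limit on myeloid markers. With library sizes without abundant genes, which also leave out the 8 genes, 27 of 28 kept it. With the mean over cells 27 of 28 kept it, with classes from clusters 15 of 17, and with cells thinned to 1000 UMIs 23 of 27. The summed level of the 8 genes in NK cells was 27201 CPM in WT against 26451 in APP/PS1. It was 27523 and 26673 CPM without called doublets, 23594 and 22735 CPM without the limit on myeloid markers and 35675 and 34198 CPM without abundant genes in the library size. It was also 27494 CPM in WT with the mean over cells, 27880 CPM in WT after thinning and 26689 CPM in APP/PS1 with Ncr1 alone. The share of NK cells with Cma1 after thinning was 34.3% and 34.1% in this draw. The log2 ratio of the sum was -0.040 in NK cells, -0.061 without abundant genes and -0.074 after thinning. In CD8 T cells it was 0.73, and 0.49 with clusters, 0.67 with TMM, 0.58 without abundant genes, 0.62 with the mean over cells and 0.60 after thinning. In gamma-delta T cells it was -0.33 and -0.65 with 1 UMI more in each gate, and it turned to 0.89 with clusters, 0.55 with the mean over cells and 0.66 after thinning. For Gzma alone, -1.74 in the gated cells became 1.33 in the gamma-delta cluster, a different set of cells with few NK marker UMIs. It was -1.42 in the gated cells without the cell with most UMIs in each library. The cause was not tested. Of the 8 genes 5 were past 1.5-fold in CD8 T cells, and 3 with clusters. Of all genes, 195 were past it in NK cells and 355 in CD8 T cells, 121 and 93 after thinning, 10 and 64 with a minimum of 200 UMIs, and 1431 and 2041 with one of 10 UMIs. Gzmb in basophils was 683 CPM in WT against 436 in APP/PS1 without called doublets. No paired analysis was possible because there is 1 library per genotype and the labels carry no replicate numbers. Depth limits Gzmk in NK cells, Cma1 in T cells, Cma1 and Gzmb in the early-marker NK cells of WT, and Prf1 and Gzmb in gamma-delta T cells, each with fewer than 50 UMIs.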
